A study of Saccharomyces cerevisiae S288C with 4 samples.

Results

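Ergosterol is the main sterol of yeast membranes, and the genes that make it, control its synthesis and store it as steryl esters were followed here in cells that lack *THO2*. The set held 33 of the 6396 genes in the deposited table, chosen by gene symbol: 25 genes for enzymes of the synthesis pathway and their partners, the transcription factor genes *UPC2* and *ECM22*, 5 genes of steryl ester synthesis and hydrolysis, and *HES1*, which encodes an oxysterol-binding protein. All 33 passed the expression filter of the main test, although *HES1* had at most 55 counts in any library. Total RNA was sequenced from the *tho2Δ* strain FY254, in which *KanMX4* replaces *THO2*, and from the WT strain BY4741, with 2 libraries per strain, numbered replicates 3 and 4 in the labels. Both strains are *MATa* haploids and carry the *ura3Δ0*, *leu2Δ0*, *his3Δ1* and *met15Δ0* alleles, and mid-log cells of both from rich medium (YPD) were used. *THO2* encodes a subunit of the THO complex, which packages nascent mRNA for export, and FY254 is a single deletion strain from a collection, so a second change in that strain cannot be told apart from the deletion.

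Sterol synthesis starts from acetyl-CoA. The mevalonate steps give isoprenoid building blocks, 2 farnesyl units are joined to squalene, squalene is oxidized and folded into lanosterol, and a long series of reactions in the endoplasmic reticulum turns lanosterol into ergosterol. Several late steps use molecular oxygen and heme, so the pathway responds to both. When sterol is scarce, the zinc cluster factor Upc2 enters the nucleus and activates many *ERG* genes, and the related Ecm22 binds the same sequence. Surplus sterol is esterified to fatty acids by Are1 and Are2 and kept in lipid droplets, from which hydrolases release it.

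The libraries held 31417222 and 36989697 counts in *tho2Δ* and 33543267 and 32401027 in WT. *THO2* had 1 count in each *tho2Δ* library, against 4011 and 2457 in WT. Genes specific to **a** cells lay between 76.4 and 1250 TPM (the authors' expression level per gene length, scaled to a fixed total) in *tho2Δ* and between 73.4 and 1180 TPM in WT, and genes specific to α cells reached at most 22.6 TPM in *tho2Δ* and 4.32 TPM in WT. *LEU2*, which the strain list gives as deleted in both strains, had 511 and 4276 counts in *tho2Δ* and 0 and 2512 counts in WT, whereas *URA3* and *MET17* (*MET15*) had 0 in all 4 libraries. The part of whatever gave the *LEU2* reads in the results was not tested. Both *tho2Δ* libraries and WT replicate 4 held such reads, so leaving out 1 library cannot remove them. The counts of changed genes without each library are given beside the main ones. The WT libraries also differed more from each other than the *tho2Δ* libraries. In CPM (counts over TMM-scaled library size) the median absolute log2 gap between the libraries of a strain was 0.06 in *tho2Δ* and 0.19 in WT over the 33 genes. In this unit 25 of the 33 were higher in WT replicate 4 than in WT replicate 3. A lower TMM factor raises CPM, and it was 0.7228 in WT replicate 4 against 1.003 in WT replicate 3. Summed over the 33 genes, TPM was instead 4742 in WT replicate 3 and 4279 in WT replicate 4. The sources do not say whether the libraries of a strain came from separate cultures, and the p-values reflect only the spread between these libraries, which may be technical.

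Upc2 and Ecm22 bind a sterol response element with the core TCGTATA, and the related 8-base sequences TCGTTTAG and TCGTTCAG occur in sterol gene promoters. All 3 were searched on both strands of the R64 reference (RefSeq), from 250 bases before to 50 bases after each start codon. None of the 3 contains another. TCGTATA lay in this window in 4 of the 33 genes (12.1%), against 4.15% of 6002 promoters of the same length, TCGTTTAG in 7 (21.2%), against 0.933%, and TCGTTCAG in 1 (3.03%), against 0.816%. The sites below were chosen to show each motif in genes whose transcripts were lower in *tho2Δ* (*ERG2*, *YEH1*, *ERG7*, *MVD1*, *ERG11*). For genes whose transcripts did not pass the test, only TCGTTTAG is shown (*ERG9*, *ERG4*). *ERG13*, which holds TCGTATA in this window, did not pass either and is not printed. Each printed site is read 5′ to 3′ on the strand that holds the motif, which is in capitals.
ERG2 (chrXIII:667342-667368, plus strand): accacggcccTCGTATAagccgcaagg
YEH1 (chrXII:125309-125335, minus strand): gtttcttttcTCGTATAtaataagctt
ERG7 (chrVIII:238906-238933, plus strand): tcgtttataaTCGTTTAGgtgaaaagtt
MVD1 (chrXIV:701785-701812, plus strand): ccgaaatggcTCGTTTAGccttttctcg
ERG11 (chrVIII:121800-121827, minus strand): ataagcagtaTCGTTCAGcgtgtgtatt
ERG9 (chrVIII:484695-484722, minus strand): ttctcgctgcTCGTTTAGgcactaaacc
ERG4 (chrVII:472629-472656, minus strand): gaaatgagtcTCGTTTAGttattaaacg
The far end of the motif lay 185 bases from the start codon in *ERG2*, 182 in *ERG7* and 134 in *ERG11*.

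Transcripts of the ergosterol pathway were lower in *tho2Δ* than in WT relative to the other genes of the same libraries. With counts scaled by TMM, which sets the bulk of genes to no change, 17 of the 33 genes were lower at an adjusted p under 0.05 (edgeR's quasi-likelihood test, Benjamini-Hochberg over 5890 genes), 0 were higher and 16 did not pass. At an unadjusted p under 0.05 there were 23 lower and 2 higher, and DESeq2 called 19 lower and 0 higher. Over all genes tested, 19.1% were called lower and 18.8% higher at an adjusted p under 0.05 (edgeR). Shares of all genes at an unadjusted p were not counted. Counts of the set at that cut-off, here and below, therefore have no background to be read against. The median log2 fold change, *tho2Δ* over WT, was -0.49 for the 33 genes and 0.01 for all genes, and 27 of the 33 values were below 0, against 49.4% of all genes. The changes were mostly small: 3 genes, *UPC2*, *ERG1* and *ERG11*, had a value below -1, against 9.02% of all genes. Both *tho2Δ* libraries lay below both WT libraries in CPM (counts over TMM-scaled library size) for 25 genes and above them for 4, with overlap in 4. Among all genes 36.3% lay below and 38.6% above. In TPM, which uses no such factor, the *tho2Δ* libraries lay below for 12 genes and above for 11, with overlap in 10, against 15.8% of all genes below and 57.7% above.

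These calls depended on the scaling and on which libraries were used. With library totals in place of TMM the median of all genes was 0.45, 79.9% of all calls were higher (49.6% with TMM), and in this set *ERG1* alone was called lower and *TGL1* alone higher, against 5.14% and 20.5% of all genes. On log2(TPM + 1) with limma, *ERG1* and *ERG11* were called lower and *TGL1* higher (background 6.05% and 20.5%), with 77.2% of all calls higher, and the same genes were called on log2(TPM + 0.1) (background 5.82% and 18.7%). The remaining fits called between 16 and 19 of the set lower. The background there was 19.4% with median-of-ratios factors, 19.9% with TMM factors without ribosomal protein genes, 20.7% with DESeq2, 17.1% without a filter and 17.7% with the replicate number as a block. A scaling factor moves all genes of a library alike, so the distance to the median gene could hardly change and is no separate support. The median of the set was 0.50 log2 units below that of all genes with TMM, 0.47 below with library totals and 0.50 below with TPM. With TMM and with library totals, 27 of the 33 genes lay below the median gene. Directions below are therefore relative to the bulk of genes. Each library is a bulk culture, in which fewer cells with a transcript and less of it per cell cannot be told apart. Without *tho2Δ* replicate 3 no gene of the set was called by edgeR (3.98% of all genes lower, 5.23% higher), with 11 lower and 0 higher at an unadjusted p under 0.05, and without *tho2Δ* replicate 4 *UPC2* was the only one (3.37% and 5.17%). Without WT replicate 3, 25 were lower and 2 higher (31.1% and 30.1% of all genes), and without WT replicate 4, 22 were lower and 3 higher (27.5% and 26.7%). In those 2 fits all 17 calls were present. The median of the set lay between -0.62 and -0.39 over the 4 fits without 1 library.

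**Figure D1:**
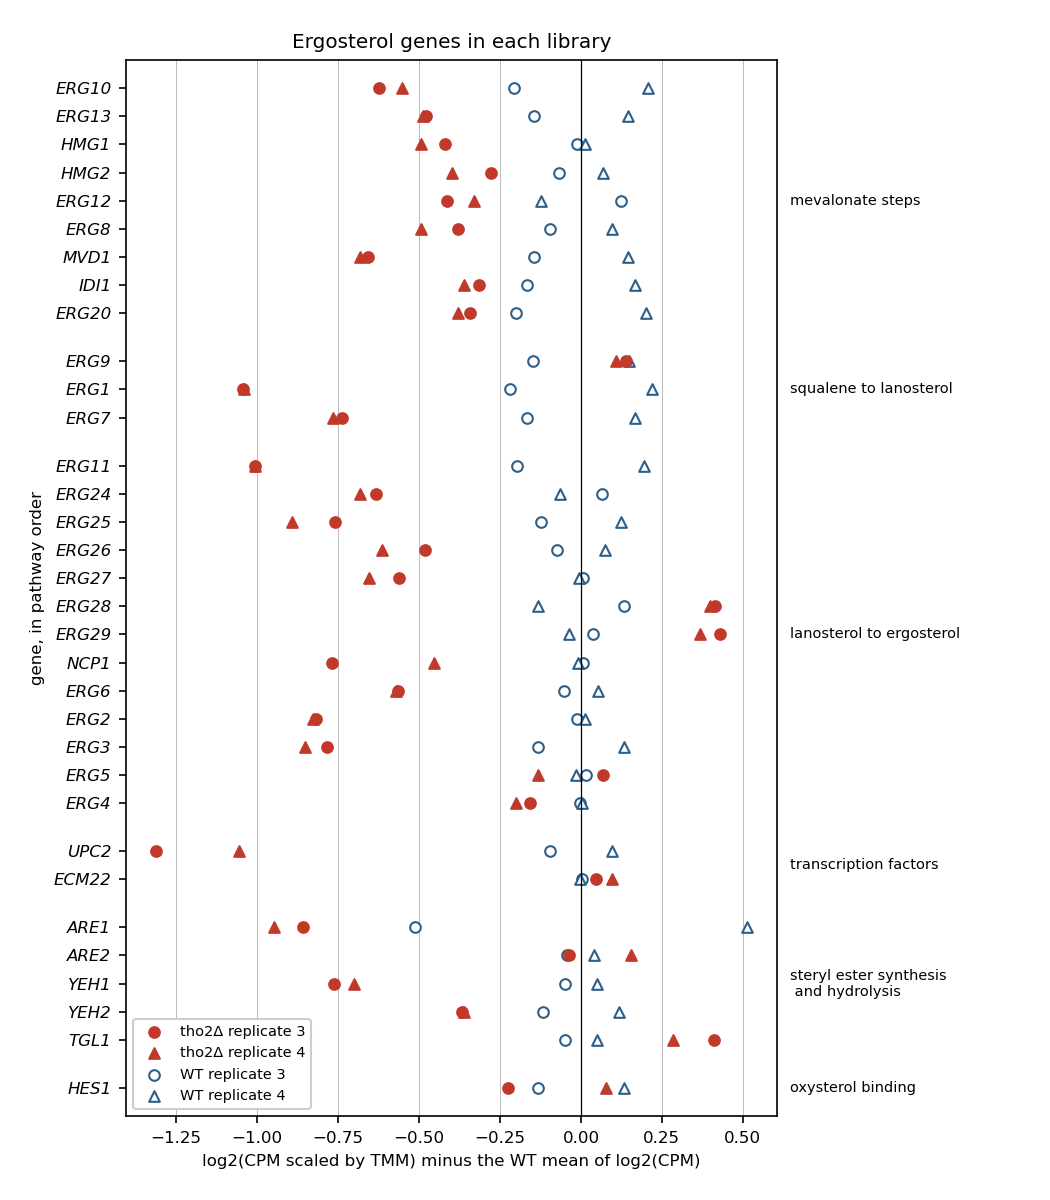
Each row is a gene in pathway order, and the x axis gives log2(CPM scaled by TMM) minus the mean of the WT libraries. Filled red symbols are the *tho2Δ* libraries and open blue symbols the WT libraries, circles for replicate 3 and triangles for replicate 4. In 25 of the 33 genes both red symbols lie left of both blue ones, and the WT symbols of *ARE1* are the farthest apart.

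Of the 9 genes of the mevalonate steps, 4 were lower and 5 did not pass, against 19.1% of all genes lower. All 9 values were below 0 with TMM, from -0.68 to -0.34, with a median of -0.44, whereas with library totals *HMG2*, *ERG12*, *ERG8*, *IDI1* and *ERG20* had values from 0.02 to 0.12. *MVD1*, whose product makes isopentenyl diphosphate, had 93.9 and 92.4 CPM in the *tho2Δ* libraries, against 134 and 164 CPM in the WT libraries, and its log2 fold change was -0.68 (SE 0.13, adjusted p = 0.0126, edgeR). *ERG10*, the acetoacetyl-CoA thiolase gene at the entry to the pathway, had 303 and 318 CPM in *tho2Δ* and 404 and 539 CPM in WT (log2 fold change -0.60, SE 0.18, adjusted p = 0.0449, edgeR). In CPM WT replicate 4 was high for this gene, whereas in TPM the WT libraries were close, at 291 and 292. Without WT replicate 4 the log2 fold change was -0.39. *ERG8*, which encodes phosphomevalonate kinase, had 49.7 and 45.9 CPM in *tho2Δ*, against 60.5 and 69.0 CPM in WT (log2 fold change -0.44, SE 0.12, adjusted p = 0.0402, edgeR), and its value was 0.02 with library totals.

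HMG-CoA reductase, the main control point of the mevalonate steps, has 2 genes in yeast. *HMG1* had 87.5 and 83.1 CPM in *tho2Δ* and 116 and 118 CPM in WT, with no overlap (log2 fold change -0.45, SE 0.10, adjusted p = 0.0175, edgeR). In TPM the strains overlapped for *HMG1*, and with library totals its value was -0.01. *HMG2* had 275 and 253 CPM in *tho2Δ* and 318 and 349 CPM in WT, and its log2 fold change of -0.34 did not pass (SE 0.12, adjusted p = 0.0828, edgeR). Per length, *HMG2* was the more abundant of the pair in every library. The TPM ratio of *HMG1* over *HMG2*, which no scaling factor can change, was 0.315 and 0.326 in *tho2Δ*, against 0.361 and 0.334 in WT. The difference of the log2 ratios was -0.12, about the size of the gap between the WT libraries, and the exact two-sided permutation test gave p = 0.333, the smallest that 2 against 2 libraries allow.

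The other 4 mevalonate genes did not pass the test. *ERG13*, which encodes HMG-CoA synthase, had 404 and 401 CPM in *tho2Δ*, against 509 and 622 CPM in WT (log2 fold change -0.49, adjusted p = 0.0556, edgeR). *ERG12* (mevalonate kinase), *IDI1* (isopentenyl diphosphate isomerase) and *ERG20* (farnesyl diphosphate synthase) had log2 fold changes of -0.38, -0.35 and -0.38, and in each the *tho2Δ* libraries lay below the WT libraries in CPM. In TPM the *tho2Δ* libraries of *IDI1* and *ERG20* lay above the WT libraries and those of *ERG12* overlapped them. Without WT replicate 3 the value was -0.53 for *IDI1* and -0.59 for *ERG20*, both called lower there, and without WT replicate 4 it was -0.19 and -0.17. The summed level of the 9 genes was 1150 and 1156 TPM in *tho2Δ*, against 1245 and 1167 TPM in WT.

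The 3 genes from squalene to lanosterol separated sharply. *ERG9* encodes squalene synthase, the first enzyme committed to sterols, and had 182 and 178 CPM in *tho2Δ*, between the 149 and 183 CPM of WT (log2 fold change 0.12, SE 0.13, adjusted p = 0.523, edgeR). *ERG1* encodes squalene epoxidase, the next enzyme, which uses oxygen and is the target of terbinafine. It had 575 and 577 CPM in *tho2Δ*, against 1020 and 1380 CPM in WT, so the *tho2Δ* libraries were nearly equal and both far below the WT libraries. The log2 fold change was -1.06 (SE 0.20, adjusted p = 0.0132, edgeR), or 2.09-fold lower, and it was also called with library totals (-0.58, adjusted p = 0.0426). *ERG1* lies on chromosome VII from 846933 to 848423 on the minus strand of R64. *ERG7*, the lanosterol synthase gene, had 78.1 and 76.6 CPM in *tho2Δ*, against 116 and 146 CPM in WT (log2 fold change -0.76, SE 0.14, adjusted p = 0.0113, edgeR).

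Set side by side after their values were seen, and as a restatement of them, *ERG1* over *ERG9* was a TPM ratio of 2.84 and 2.90 in *tho2Δ* and 6.15 and 6.77 in WT. The 3 genes summed to 546.9 and 553.1 TPM in *tho2Δ*, against 733.9 and 732.9 TPM in WT.

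From lanosterol to ergosterol, 9 of 13 genes were lower and 4 did not pass, against 19.1% of all genes lower. The median log2 fold change of the 13 was -0.60. *ERG11*, the lanosterol demethylase gene and azole target, was the most abundant gene of the set per length, at 393 and 400 TPM in *tho2Δ* and 605 and 596 TPM in WT, with *ERG1* close to it at 379 and 385 TPM in *tho2Δ* and 592 and 601 TPM in WT. In WT the values of these genes overlapped. *ERG11* had 638 and 639 CPM in *tho2Δ*, against 1120 and 1470 CPM in WT (log2 fold change -1.02, SE 0.20, adjusted p = 0.0142, edgeR), and lies on chromosome VIII from 120091 to 121683 on the minus strand. *NCP1*, which encodes the P450 reductase that passes electrons to Erg11, had 49.4 and 61.5 CPM in *tho2Δ*, against 84.7 and 83.8 CPM in WT (log2 fold change -0.60, SE 0.14, adjusted p = 0.0222, edgeR). In CPM the *tho2Δ* libraries of *NCP1* were the ones that differed, whereas in TPM the strains overlapped. With library totals its value was -0.16 and did not pass (adjusted p = 0.671, edgeR).

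With TMM the genes that remove the methyl groups of the sterol ring were lower together, with their scaffold as the exception. *ERG25*, the methyl sterol oxidase gene, had 261 and 238 CPM in *tho2Δ* and 406 and 481 CPM in WT (log2 fold change -0.83, SE 0.14, adjusted p = 0.00973, edgeR). *ERG26*, the sterol dehydrogenase gene, had 96.6 and 88.0 CPM in *tho2Δ* and 128 and 142 CPM in WT (-0.55, SE 0.11, adjusted p = 0.0158). *ERG27*, which encodes the keto reductase of this complex, had 79.6 and 74.7 CPM in *tho2Δ* and 118 and 117 CPM in WT (-0.61, SE 0.10, adjusted p = 0.00764). *ERG28* encodes the protein that tethers these enzymes, and it lay on the other side, with 95.7 and 94.5 CPM in *tho2Δ*, against 78.6 and 65.5 CPM in WT. Its log2 fold change of 0.40 did not pass (SE 0.12, adjusted p = 0.0525, edgeR). *ERG29*, needed for normal ergosterol levels, was low throughout, at 5.90 and 5.65 CPM in *tho2Δ* and 4.49 and 4.27 CPM in WT (log2 fold change 0.40, adjusted p = 0.140). *ERG28* and *ERG29* held the highest values of the 33 genes. *ERG24*, the sterol reductase gene that follows *ERG11*, had 66.6 and 64.4 CPM in *tho2Δ* and 108 and 98.7 CPM in WT (-0.66, SE 0.10, adjusted p = 0.00730). In TPM the strains overlapped for *ERG26*, *ERG27* and *ERG24* but not for *ERG25*. With library totals the values were -0.36 (*ERG25*), -0.09 (*ERG26*), -0.17 (*ERG27*) and -0.22 (*ERG24*), and none of these genes was called.

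Of the last 5 steps, 3 were lower and 2 did not pass, against 19.1% of all genes lower. *ERG6*, the sterol methyltransferase gene, had 72.9 and 72.7 CPM in *tho2Δ* and 104 and 112 CPM in WT (log2 fold change -0.57, SE 0.10, adjusted p = 0.00989, edgeR). In TPM the strains overlapped for *ERG6*, and with library totals its value was -0.11 and did not pass (adjusted p = 0.734, edgeR). *ERG2*, the sterol isomerase gene, had 95.6 and 95.0 CPM in *tho2Δ* and 167 and 170 CPM in WT, with close libraries in both strains (-0.82, SE 0.10, adjusted p = 0.00327). *ERG3*, the first of 2 desaturase genes, had 358 and 342 CPM in *tho2Δ* and 563 and 676 CPM in WT (-0.82, SE 0.15, adjusted p = 0.0116). The other desaturase gene, *ERG5*, had 254 and 221 CPM in *tho2Δ*, on both sides of the 245 and 240 CPM in WT (-0.03, SE 0.12, adjusted p = 0.875). *ERG4*, for the final reductase, had 410 and 398 CPM in *tho2Δ* and 456 and 458 CPM in WT (-0.18, SE 0.12, adjusted p = 0.300). Grouped after the values were seen, the genes for oxygen-using enzymes had log2 fold changes of -1.06 (*ERG1*), -1.02 (*ERG11*), -0.83 (*ERG25*), -0.82 (*ERG3*) and -0.03 (*ERG5*), so the group was not uniform. The 13 genes summed to 2085 and 2035 TPM in *tho2Δ*, against 2590 and 2196 TPM in WT.

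**Figure D2:**
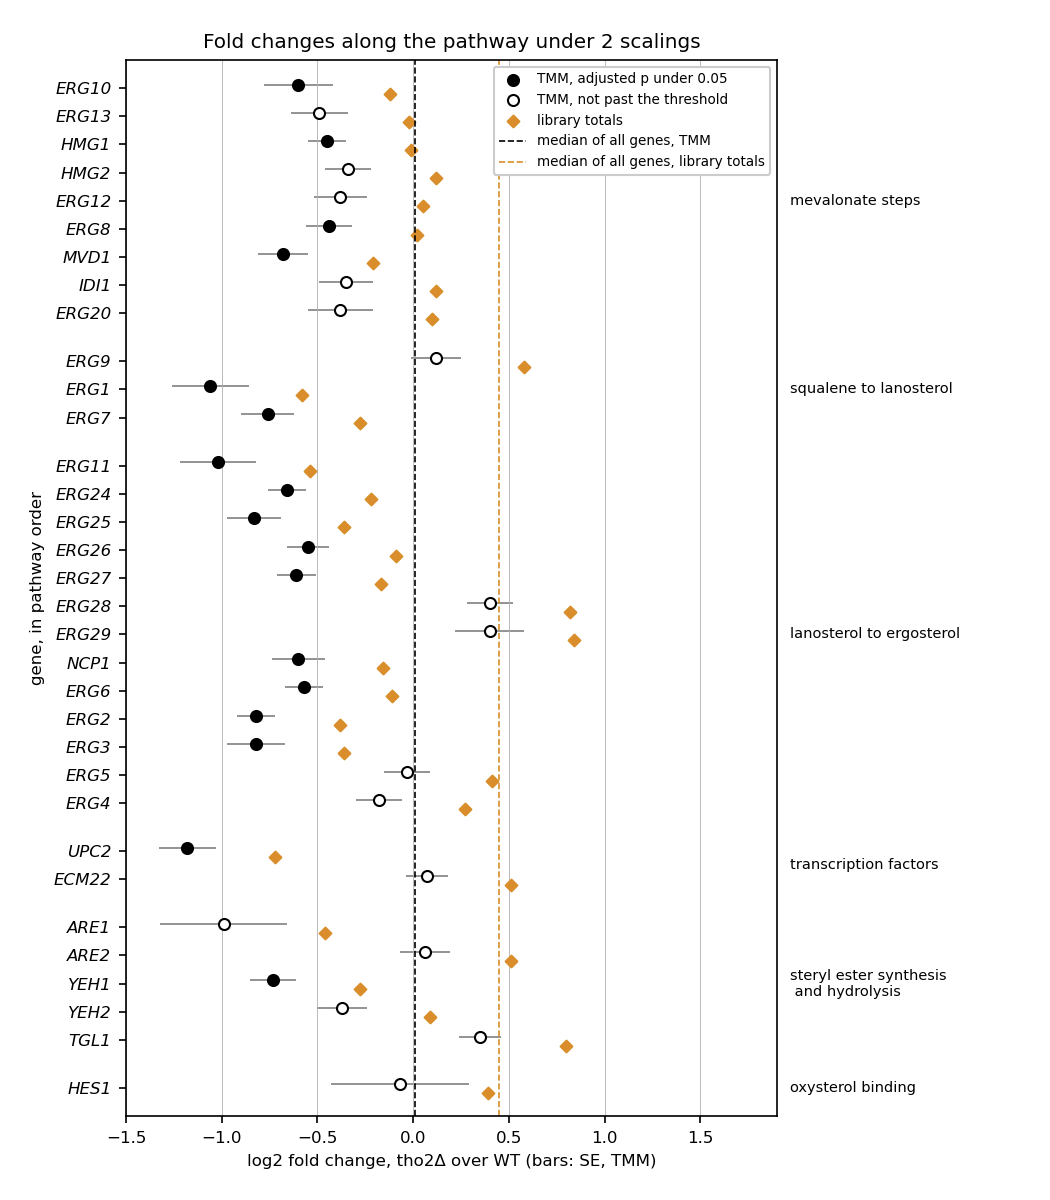
Black circles are log2 fold changes, *tho2Δ* over WT, with TMM (filled, adjusted p under 0.05) with bars of 1 SE, and orange diamonds are the same genes with library totals. Dashed lines mark the median of all genes, 0.01 with TMM and 0.45 with library totals. The diamonds lie right of the circles by about the distance between the dashed lines, and *ERG9*, *ERG28*, *ERG29*, *ERG5* and *ERG4* lie right of the other synthesis genes.

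The gene for the sterol sensor *UPC2* had the lowest fold change of the set, and its paralog did not follow. *UPC2* (chromosome IV, 889751 to 892492, plus strand) had 17.9 and 21.4 CPM in *tho2Δ*, against 41.6 and 47.6 CPM in WT. The strains did not overlap, and the log2 fold change was -1.18 (SE 0.15, adjusted p = 0.00405, edgeR), or 2.27-fold lower. *ECM22* had 39.0 and 40.3 CPM in *tho2Δ* and 37.8 and 37.7 CPM in WT (log2 fold change 0.07, SE 0.11, adjusted p = 0.645, edgeR). The TPM ratio of *UPC2* over *ECM22* was 0.408 and 0.474 in *tho2Δ*, against 0.983 and 1.12 in WT. *UPC2* was thus the less abundant of the pair in both *tho2Δ* libraries and about equal to *ECM22* in WT. The log2 ratio was -1.18 ± 0.15 in *tho2Δ* and 0.07 ± 0.14 in WT (SD, n = 2 each), a difference of -1.26 (exact two-sided permutation p = 0.333, the smallest possible). These genes align with each other at 74.4% identity over 395 bases, 14.4% of *UPC2*, and no gene of the set had a copy of at least 95% identity over at least 50% of its length.

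Of the 5 genes of the ester cycle, 1 was lower and 4 did not pass, too few to set apart from the background of 19.1% lower. *ARE1* and *ARE2* encode the acyltransferases that esterify sterol. *ARE1* had 100 and 94.0 CPM in *tho2Δ*, against 127 and 259 CPM in WT, so that the WT libraries were 1.03 log2 apart, more than for any other gene of the set. The log2 fold change of -0.99 did not pass (SE 0.33, adjusted p = 0.064, edgeR), and it was -1.44 without WT replicate 3 and -0.39 without WT replicate 4. *ARE1* overlaps *YCR050C* by 298 bases, and without stated strand use their reads cannot be told apart. *ARE2* had 28.7 and 32.8 CPM in *tho2Δ* and 28.6 and 30.3 CPM in WT (log2 fold change 0.06, adjusted p = 0.716). The TPM ratio of *ARE1* over *ARE2* was 3.69 and 3.02 in *tho2Δ* and 4.67 and 9.03 in WT (exact two-sided permutation p = 0.333, the smallest possible), and this difference rested largely on WT replicate 4: it was -0.96 in log2 with all libraries and -0.49 without that one.

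Of the 3 steryl ester hydrolase genes, 1 was lower, again too few to set against the 19.1% of all genes. *YEH1* had 15.9 and 16.6 CPM in *tho2Δ*, against 26.1 and 27.9 CPM in WT (log2 fold change -0.73, SE 0.12, adjusted p = 0.0073, edgeR). Its paralog *YEH2* had 36.2 and 36.4 CPM in *tho2Δ* and 43.1 and 50.7 CPM in WT (-0.37, SE 0.13, adjusted p = 0.0719). *TGL1*, the remaining hydrolase gene, had 96.2 and 88.1 CPM in *tho2Δ* and 70.0 and 74.9 CPM in WT (0.35, SE 0.11, adjusted p = 0.0519), and was called higher with library totals (0.80, adjusted p = 0.0426). The TPM ratio of *YEH1* over *YEH2* was 0.412 and 0.429 in *tho2Δ*, against 0.569 and 0.515 in WT, a log2 difference of -0.37 (exact two-sided permutation p = 0.333, the smallest possible). *HES1* was barely expressed, with 1.03 and 1.27 CPM in *tho2Δ* and 1.10 and 1.32 CPM in WT, and a change in it was not detectable at this depth (log2 fold change -0.07, SE 0.36).

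**Figure D3:**
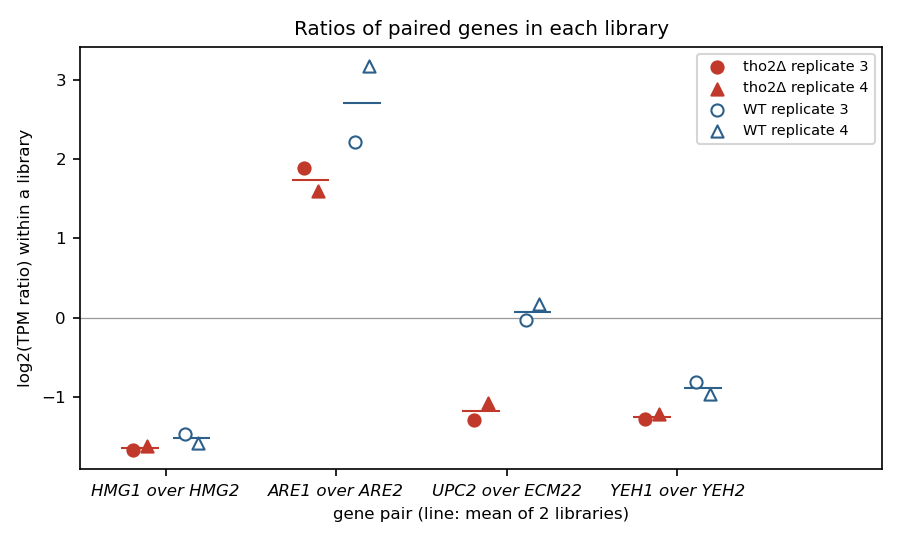
The y axis gives the log2 of the TPM ratio of paired genes within a library, with *tho2Δ* (filled red) left of WT (open blue) for each pair and a line at the mean of 2 libraries. *UPC2* over *ECM22* has the widest gap between strains, with means of -1.18 in *tho2Δ* and 0.07 in WT, and *ARE1* over *ARE2* has the widest spread between WT libraries.

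Genes with and without a sterol response motif were among those lower in *tho2Δ*. Any of the 3 motifs was held by 12 genes (36.4% of the set, against 5.83% of promoters). Of these 12, 7 were called lower, and of the 21 without, 10 were, against 19.1% of all genes tested. The median log2 fold change was -0.64 with a motif and -0.38 without. *ERG9* and *ERG4*, whose sites are printed above, had values of 0.12 and -0.18, and *ERG1* and *UPC2* held no motif in this window. From 500 bases before the start codon, a width chosen after the data were seen, 20 genes held one (60.6%, against 10.3% of promoters). Of these 20, 13 were called lower, and 4 of the 13 without were. For neither window was the share called lower counted among all genes with a motif. The wider window added *UPC2*, *ERG1*, *ERG25*, *ERG3*, *ERG6* and *ERG24*, which were lower, and *ERG28* and *HES1*, which did not pass. Sites of both kinds follow, again with the motif in capitals.
UPC2 (chrIV:889381-889408, minus strand): taaggtgcgcTCGTTTAGagaaaaaaat
ERG1 (chrVII:848789-848815, minus strand): tagcgggcctTCGTATAgctcggccga
ERG25 (chrVII:610071-610097, plus strand): ctgcctccctTCGTATAcgggacacag
ERG3 (chrXII:253565-253591, plus strand): aaattcaggcTCGTATAagtggcacaa
ERG28 (chrV:238278-238304, plus strand): ttaattcagtTCGTATAagattaggtt
HES1 (chrXV:781648-781675, minus strand): ggctgaaaggTCGTTTAGgtgtcaaacg
The *UPC2* site lay 360 bases before its own start codon. These counts are descriptions of letters in a window, and no binding was measured here.

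Of 77 genes next to the pathway, in 5 lists, 12 were higher and 11 lower, with a median log2 fold change of 0.02. Over all genes 18.8% were higher and 19.1% lower, so these counts were no larger than the background. With library totals 10 of the 77 were higher and 1, *HEM13*, was lower, against 20.5% and 5.14% of all genes. The named genes are given for their own values. Among protein partners and degradation factors of the sterol enzymes, 3 of 17 were higher and 3 lower, near the background of 18.8% and 19.1%. *CYB5*, the cytochrome b5 gene that supplies electrons to sterol enzymes, had 16.3 and 17.1 CPM in *tho2Δ*, against 33.3 and 35.0 CPM in WT (-1.03, SE 0.11, adjusted p = 0.00303, edgeR). *CBR1*, which encodes the cytochrome b5 reductase, had 188 and 187 CPM in *tho2Δ* and 257 and 353 CPM in WT (-0.70, SE 0.17, adjusted p = 0.0289), or -0.46 without WT replicate 4. The mitochondrial reductase gene *MCR1* went the other way, with 265 and 253 CPM in *tho2Δ* and 102 and 71.8 CPM in WT (1.58, SE 0.19, adjusted p = 0.00335), so the TPM ratio of *MCR1* over *CBR1* was 1.33 and 1.27 in *tho2Δ*, against 0.372 and 0.191 in WT. *NSG2*, whose product stabilizes Hmg2, was higher (0.60, adjusted p = 0.0112) but overlaps *YNL155C-A*, whereas *NSG1* with the same role (-0.26, adjusted p = 0.246) and *DAP1*, a partner of Erg11 (0.24, adjusted p = 0.172), did not pass. *NSG1* was -0.05 without WT replicate 3 and -0.47, and called lower, without WT replicate 4 (adjusted p = 0.00183, edgeR).

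Heme synthesis held the lowest value of the 5 lists. Of its 8 genes, 2 were lower and 1 higher, too few to set apart from the background of 19.1% and 18.8%. *HEM13*, the oxygen-dependent coproporphyrinogen oxidase gene that is induced when oxygen is low, had 93.2 and 98.8 CPM in *tho2Δ*, against 276 and 401 CPM in WT (log2 fold change -1.82, SE 0.20, adjusted p = 0.00299, edgeR). It was called lower with library totals as well (-1.33, adjusted p = 0.00412). *HEM3*, the porphobilinogen deaminase gene, had 41.1 and 39.8 CPM in *tho2Δ* and 80.4 and 102 CPM in WT (-1.17, SE 0.15, adjusted p = 0.00395). *HEM14*, for protoporphyrinogen oxidase, had 35.8 and 40.0 CPM in *tho2Δ* and 25.4 and 28.4 CPM in WT (0.49, SE 0.13, adjusted p = 0.0339), and overlaps *BUD25*.

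Among 15 regulators of sterol and hypoxic genes, 1 was higher and 1 lower, under the background of 18.8% and 19.1%. *HAP1*, whose product responds to heme, had 105 and 123 CPM in *tho2Δ* and 163 and 175 CPM in WT (-0.57, SE 0.12, adjusted p = 0.0184, edgeR). In S288C-derived strains this gene carries a Ty1 insertion that impairs it. *SPT23*, an activator of the fatty acid desaturase gene, had 56.1 and 67.1 CPM in *tho2Δ* and 46.2 and 42.5 CPM in WT (0.47, SE 0.14, adjusted p = 0.0433). This call was borderline. *SPT23* did not pass with the replicate block (adjusted p = 0.0525, edgeR) or on log2(TPM + 1) (adjusted p = 0.0576, limma). With library totals it passed (adjusted p = 0.0492, edgeR). *ROX1*, the repressor of hypoxic genes, had 4.09 and 4.31 CPM in *tho2Δ* and 2.44 and 1.11 CPM in WT, and did not pass (1.21, SE 0.39, adjusted p = 0.0579, edgeR). It was called higher with DESeq2 (adjusted p = 0.0183) and with the replicate block (adjusted p = 0.0297), and also without WT replicate 3 (1.89) and without WT replicate 4 (0.78). *MOT3*, another regulator gene of this list, had 2.44 and 2.79 CPM in *tho2Δ* and 2.50 and 2.69 CPM in WT (0.01, adjusted p = 0.969).

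Of 22 genes of sterol transport and acetylation, 4 were higher, 4 lower and 14 did not pass, about the background of 18.8% higher and 19.1% lower. *LAM4*, which encodes a sterol transfer protein of membrane contact sites, had 120 and 117 CPM in *tho2Δ* and 52.4 and 57.9 CPM in WT (1.10, SE 0.11, adjusted p = 0.00213, edgeR). *PDR11*, a sterol importer gene, had 8.71 and 12.1 CPM in *tho2Δ* and 6.03 and 3.25 CPM in WT (1.15, SE 0.34, adjusted p = 0.0451). It passed with library totals (adjusted p = 0.0411, edgeR) but not on log2(TPM + 1) (adjusted p = 0.0745, limma). *ATF2*, whose product acetylates sterols, had 34.9 and 35.5 CPM in *tho2Δ* and 58.2 and 73.9 CPM in WT (-0.91, SE 0.15, adjusted p = 0.00841). On the other branches from isoprenoid precursors 3 of 15 were higher and 1 lower, with 18.8% and 19.1% as background. The prenyltransferase genes for dolichol went opposite ways with TMM. *RER2* had 16.3 and 15.7 CPM in *tho2Δ* and 28.4 and 29.3 CPM in WT (-0.85, adjusted p = 0.00439, edgeR). With library totals it was -0.40 and did not pass (adjusted p = 0.285). *SRT1* had 1.52 and 1.59 CPM in *tho2Δ* and 0.594 and 0.683 CPM in WT (1.29, adjusted p = 0.0394). It rested on few counts, 56 and 69 in *tho2Δ* and 20 and 16 in WT. With the replicate block *SRT1* did not pass (adjusted p = 0.0737, edgeR). *STE24*, the protease gene for farnesylated a-factor, had 65.3 and 68.1 CPM in *tho2Δ* and 51.6 and 37.8 CPM in WT (0.57, adjusted p = 0.0475), or 0.36 without WT replicate 4. With library totals *STE24* was 0.99 and did not pass (adjusted p = 0.0559, edgeR).

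**Figure D4:**
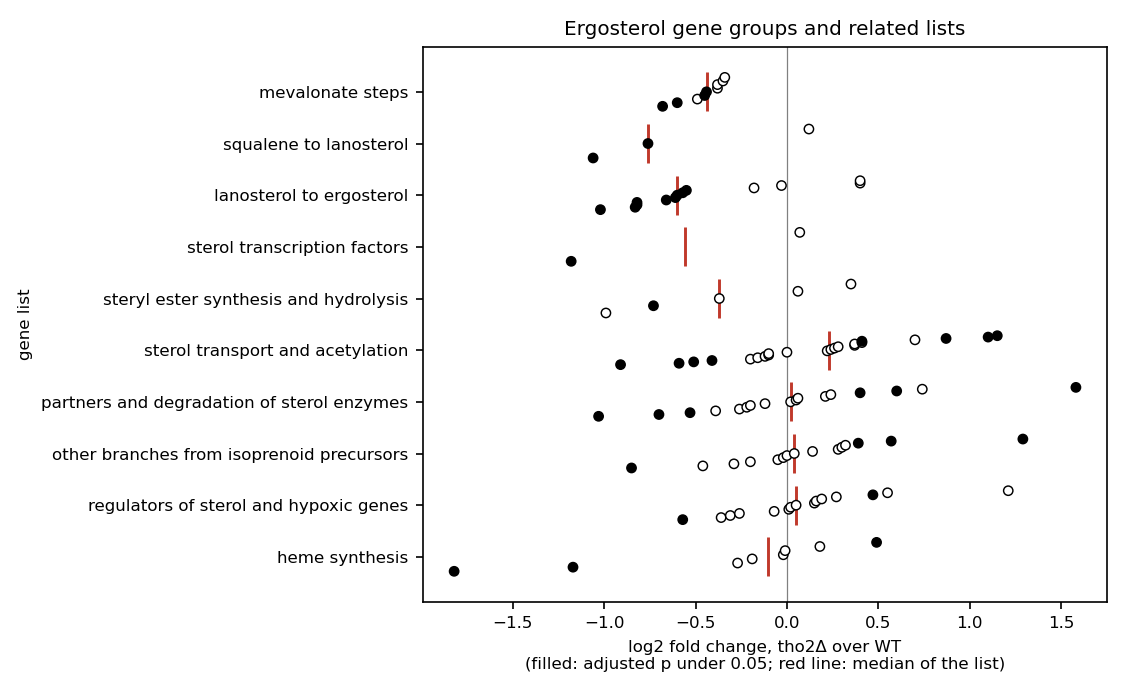
Each point is a gene, placed on the x axis by its log2 fold change (*tho2Δ* over WT, TMM), filled where the adjusted p is under 0.05, and the red line is the median of the list. The synthesis lists lie mostly left of 0, with medians of -0.44, -0.76 and -0.60, whereas the 5 related lists have medians between -0.10 and 0.23. *HES1* is not drawn.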

How the data were processed

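For each gene and library the deposited table holds a raw read count, FPKM and TPM. The counts deposited by the authors are whole and not normalized. The TPM deposited by the authors is length-scaled. The 4 FPKM columns stayed unused. StringTie 1.3.4d, HISAT2 2.1.0, Trimmomatic, bcl2fastq 2.20.0 and build R64 come from the submitters' processing notes. What each tool did, and whether strand was used, was not given in the sources used here. Of the 6396 genes, 5995 were matched to R64 by locus tag, and 3 empty lines were left out.

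The test was edgeR 4.0.16's quasi-likelihood test under R 4.3.3 (TMM scaling, expression filter, genotype alone in the design, 5890 genes kept, biological coefficient of variation 0.158), with Benjamini-Hochberg adjustment at 0.05 over all genes. TMM factors were 1.176 and 1.173 in *tho2Δ* and 1.003 and 0.7228 in WT. SE was taken from the test as |log2 fold change| over the root of F. Precision is limited by 2 libraries per strain. A count of 0 allows up to 3 counts, at most 0.1281 CPM, for counting error only. The script was tested on simulated data. Alternatives used DESeq2 1.42.0, limma 3.58.1 on log2(TPM + 1) and log2(TPM + 0.1) with a minimum mean of 1 TPM, other scalings (1 without 138 ribosomal protein genes), no filter, a replicate block and each library left out in turn. With 1 library left out, the lone library was assumed to vary like the other strain. Copies were searched with BLAST 2.17.0.

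The members and lists were chosen with earlier results of these data known. All 33 members are named. Up to 3 called genes with the largest change were named per related list, with *HAP1*, *ROX1*, *MOT3*, *DAP1*, *NSG1* and *NSG2* added whether or not they were called. *MCR1* over *CBR1* was set side by side after the values were seen. The labels give replicates 3 and 4 by number only. Deviations of same-numbered libraries had a correlation of -0.0208 across 5890 genes, which are not independent replicates. This value cannot tell whether same-numbered libraries shared a batch or handling. Analyses used Python 3.11.15, numpy 2.4.6, pandas 2.3.3 and matplotlib 3.10.9.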

Additional observations from a re-analysis of the deposited data

How the results depend on the processing

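Median-of-ratios factors and TMM factors without ribosomal protein genes gave the same 17 calls in the ergosterol set, DESeq2 gave 19 (*ARE1* and *ERG13* added) and no filter 16 (*ERG10* lost). The replicate number as a block gave 16 lower, of which 15 were among the 17 (*ERG10* and *ERG8* lost, *ARE1* added). The medians were between -0.52 and -0.48 in these fits. Library totals gave 1 lower, 1 higher and a median of -0.02, and limma on log2(TPM + 1) or with 0.1 added instead 2 lower, 1 higher and a median of -0.11 each. These settings moved the median of all genes to 0.45, 0.39 and 0.42, and *HES1* was under the TPM minimum. Without 1 library in turn, calls in the set lay between 0 and 25 lower and 0 and 3 higher.

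The related lists had 1 gene lower with library totals, 7 higher with TMM factors without ribosomal protein genes, 2 lower and 7 higher with both TPM settings, and between 2 and 21 lower and 2 and 24 higher without 1 library. All genes called lower were 303 with library totals, 348 and 335 with log2(TPM + 1) and log2(TPM + 0.1), and without 1 library between 200 and 1847 were lower and between 307 and 1790 higher. With 1 library left out, the spread comes from the other strain alone, which has fewer residual degrees of freedom and, where WT is that strain, libraries farther apart.

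With library totals the sign turned to 0.12 for *HMG2*, 0.05 for *ERG12*, 0.02 for *ERG8*, 0.12 for *IDI1*, 0.10 for *ERG20*, 0.41 for *ERG5*, 0.27 for *ERG4*, 0.09 for *YEH2*, 0.39 for *HES1* and 0.15 for *NSG1*. With log2(TPM + 1) and log2(TPM + 0.1) it turned to 0.07 and 0.07 for *HMG2*, 0.03 and 0.03 for *ERG12*, 0.06 and 0.06 for *IDI1*, 0.04 and 0.04 for *ERG20*, 0.37 and 0.37 for *ERG5*, 0.22 and 0.23 for *ERG4*, 0.03 and 0.04 for *YEH2*, and 0.16 and 0.16 for *NSG1*. Of these genes *ERG8* alone was called with TMM. Without 1 library the extremes were -0.05 and 0.26 for *ERG9*, -0.13 and 0.07 for *ERG5*, -0.04 and 0.16 for *ARE2*, -0.23 and 0.07 for *HES1* and -0.09 and 0.11 for *MOT3*, which were not called with all libraries. *MOT3* was -0.01 with TMM factors without ribosomal protein genes and -0.00 with median-of-ratios factors and with DESeq2.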
